A study of Mus musculus with 3 samples.

Results

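The 9 genes described here encode the signalling chains of the T-cell receptor (TCR) and the first proteins that act behind it: the CD3 chains Cd3d, Cd3e, Cd3g and Cd247, the kinases Lck and Zap70, the adaptors Lat and Lcp2, and the protein kinase C isoform Prkcq. They are named by their place in the pathway and are 9 of the 36835 genes that had a level in RNA sequencing of 3 sorted mouse leukocyte populations. Macrophages were sorted from 30 pooled tumors grown in the kidney of BALB/C mice from Renca Ch+ L+ cells, a renal tumor cell line. Type-1 macrophages (M1) were taken as F4/80 intermediate and CD11b high, and type-2 macrophages (M2) as F4/80 high and CD11b intermediate. CD4 T lymphocytes (CD4) were taken as TCRbeta and CD4 positive from 4 pooled spleens of tumor-bearing mice, although the sample labels also name the tumor as their origin. All animals carried the tumor, and the sources used here give no genotype beyond the strain, no further treatment and no age. Each population gave a single library of pooled RNA, so no difference below has a replicate check and none was tested.

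The TCR itself has almost no cytoplasmic part and signals through the CD3 chains, whose tails carry immunoreceptor tyrosine-based activation motifs (ITAMs). Lck phosphorylates the tyrosines of an ITAM, Zap70 docks there and phosphorylates Lat and Lcp2, and the complex that forms on these adaptors leads to calcium release and to Prkcq, which acts upstream of NF-kappaB. Macrophages use a parallel set, with Fcer1g and Tyrobp as ITAM chains of their Fc and other receptors, Syk in place of Zap70, and Lyn and Fgr among the Src family kinases. Lcp2, also called SLP-76, is not limited to T cells and is also found in macrophages, platelets and mast cells.

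Markers of the sorted cells went against 2 of the column headings, so M1, M2 and CD4 below stand for the library labelled in that way and not for a cell type. Of 15 T-cell markers other than the 9 genes, 13 had a level in all 3 columns and all 13 were highest in the library labelled M2, where they summed to 1848 FPKM (fragments mapped to a transcript, divided by its length and by the size of the library) against 14.9 in M1 and 20.2 in CD4. Among all genes above 0 in any library, 46.4% were highest in M2. All 15 macrophage markers were lowest in the library labelled M2, with a summed level of 676 FPKM against 8721 in M1 and 13730 in CD4. The share of all genes lowest in M2 was not computed. By the ratio of FPKM + 1, all 15 were past 2-fold lower in M2 than in M1 and in CD4, where 4.9% and 5.17% of all genes were. Cd4 itself was listed at 0.870 FPKM in M1, 166 in M2 and 15.2 in CD4. FPKM values carry no read depth, which was estimated by reading the commonest low value as a single fragment and came to 61400000 fragments for M1, 59700000 for M2 and 72000000 for CD4.

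The ITAMs of the CD3 chains and of the macrophage chains Fcer1g and Tyrobp are shown first, since these motifs are where the signal of both receptor systems starts. The 8 sequences below are coding DNA of the reference build NCBIM37 (MM9) from the first tyrosine codon of the motif to its last leucine or isoleucine codon. Capitals mark the tyrosine and the leucine or isoleucine codons that define the motif. Further tyrosine or leucine codons between them are in lower case.
Cd3d ITAM: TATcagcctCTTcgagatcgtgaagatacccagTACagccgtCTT
Cd3e ITAM: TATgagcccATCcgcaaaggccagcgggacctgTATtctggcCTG
Cd3g ITAM: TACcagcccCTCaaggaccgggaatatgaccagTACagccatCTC
Cd247 ITAM 1: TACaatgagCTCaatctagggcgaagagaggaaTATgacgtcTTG
Cd247 ITAM 2: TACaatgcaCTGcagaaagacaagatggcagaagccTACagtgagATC
Cd247 ITAM 3: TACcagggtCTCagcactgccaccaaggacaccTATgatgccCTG
Fcer1g ITAM: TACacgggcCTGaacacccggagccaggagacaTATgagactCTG
Tyrobp ITAM: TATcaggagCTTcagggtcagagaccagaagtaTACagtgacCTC
Each motif is split over 2 exons. The Cd3d motif spans chr9:44794178-44794394 on the plus strand (exons 4 and 5), the Cd3e motif chr9:44807632-44808523 on the minus strand (exons 7 and 8) and the Cd3g motif chr9:44778818-44779351 on the minus strand (exons 5 and 6). In Cd247, on the plus strand, the motifs span chr1:167786582-167787585, chr1:167788604-167789391 and chr1:167789950-167791173, from exon 3 to exon 8. The Fcer1g motif lies at chr1:173160020-173160203 on the minus strand and that of Tyrobp at chr7:31200689-31202401 on the plus strand, both over exons 4 and 5. The motifs are 45 bases long, except for Cd247 ITAM 2, which has 48. Among motifs of equal length, Cd3d and Cd3g were the most alike, with 32 of 45 identical bases, followed by Cd247 ITAM 3 and Fcer1g with 29 of 45. The other pairs shared 26.7% to 53.3% of their bases.

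The CD3 chains were high in the library labelled M2 and near or at 0 in the other 2. Cd3d (ENSMUSG00000032094, chr9:44789876-44795135, plus strand), which pairs with Cd3e in the receptor, was at 0.0967 FPKM in M1, 72.9 in M2 and 0.0972 in CD4. Cd3e (ENSMUSG00000032093, chr9:44806826-44817673, minus strand), the chain shared by both CD3 heterodimers, was at 0.131 FPKM in M1, 126 in M2 and 0.141 in CD4. Both genes thus stood apart in M2, by ratios of FPKM of 754 and 959 over M1 and of 750 and 895 over CD4. Cd3g (ENSMUSG00000002033, chr9:44777655-44788514, minus strand), the partner of Cd3e in the other heterodimer, was at 0.138 FPKM in M1, 203 in M2 and 0.264 in CD4, with ratios of 1465 and 768. Incomplete rows of the table are described further on, and a dash in them was counted as 0. With them the ratios over M1 were 327 for Cd3d and 487 for Cd3g. Cd247 (ENSMUSG00000005763, chr1:167718812-167807407, plus strand), the zeta chain that forms a homodimer, was at 102 FPKM in M2 and listed at 0 in M1 and CD4, so no ratio is given. Within M2 the highest of the 4 chains, Cd3g, was 2.78-fold above the lowest, Cd3d, on the FPKM scale, which accounts for length. With 1 bulk library per population, fewer cells that make an RNA and less of that RNA per cell cannot be told apart.

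**Figure D1:**
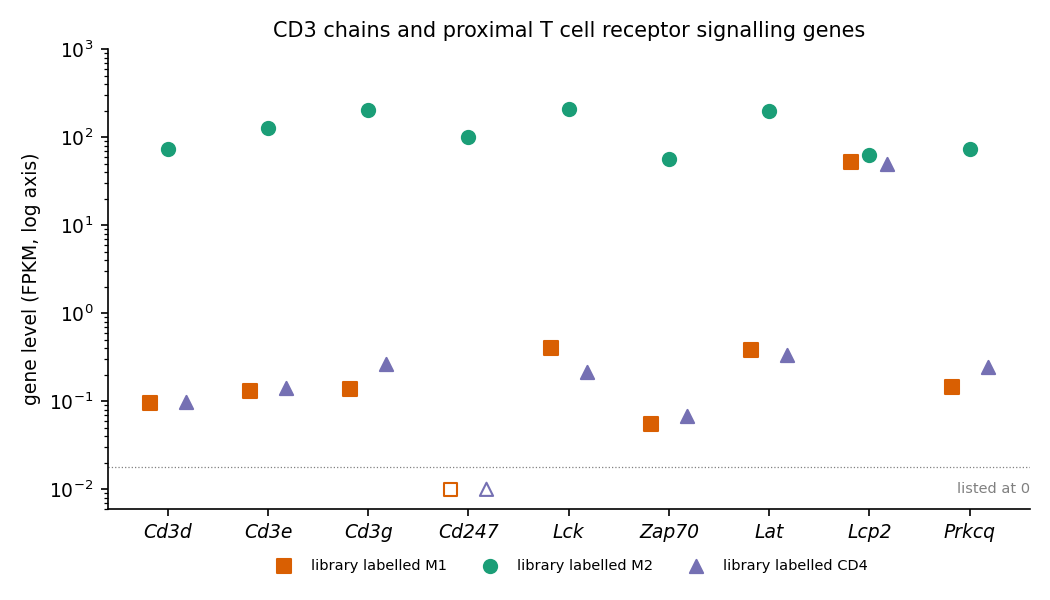
Level of each of the 9 genes in FPKM (log axis) in the libraries labelled M1 (squares), M2 (circles) and CD4 (triangles), 1 point per library, with open symbols below the dotted line for genes listed at 0. The points of M2 lie between 56.7 and 209 FPKM, those of the other 2 libraries at 0.408 FPKM or below, except for Lcp2, whose 3 points lie between 50.0 and 63.1 FPKM.

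The 2 kinases had the same order. Lck (ENSMUSG00000000409, chr4:129225588-129250885, minus strand), the Src family kinase bound to the CD4 and CD8 co-receptors, was at 0.408 FPKM in M1, 209 in M2 and 0.214 in CD4. Its ratios were 512 over M1 and 974 over CD4, and 274 and 271 with the incomplete rows included. Zap70 (ENSMUSG00000026117, chr1:36818695-36839663, plus strand), the kinase that binds phosphorylated ITAMs, was at 0.0547 FPKM in M1, 56.7 in M2 and 0.0688 in CD4. Over complete rows it was 3.68-fold below Lck in M2, and its ratios were 1036 over M1 and 824 over CD4.

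The adaptors differed from each other. Lat (ENSMUSG00000030742, chr7:133507346-133513057, minus strand), the membrane scaffold that Zap70 phosphorylates, was at 0.382 FPKM in M1, 200.2 in M2 and 0.340 in CD4, with ratios of 524 and 589, the latter 363 with the incomplete rows. Lcp2 (ENSMUSG00000002699, chr11:33946920-33992295, plus strand), the cytosolic adaptor that joins Lat, was at 53.0 FPKM in M1, 63.1 in M2 and 50.0 in CD4. Its levels in M1 and CD4 were 84.0% and 79.2% of that in M2, and it was the one gene of the 9 whose 3 values lay close together. Lcp2 was also among the more abundant genes of each library, at percentile 94.0 of the genes above 0 in M1, 96.0 in M2 and 93.7 in CD4. Platelets and mast cells also express Lcp2, and the markers of these cells were measured beside it. The 7 platelet markers summed to 100.2 FPKM in M1, 10.7 in M2 and 177 in CD4, most of it from Pf4, while Gp9 and Gp1bb were listed at 0 in all 3. The 7 mast-cell markers summed to 0.231, 2.41 and 0.126 FPKM, with 0.576 FPKM as the highest value of a marker over complete rows and 2.06, for Cpa3 in M2, with all rows. The part of these cells in the level of Lcp2 was not tested.

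Prkcq (ENSMUSG00000026778, chr2:11093740-11222853, plus strand), the protein kinase C recruited to the T-cell contact site, was at 0.145 FPKM in M1, 73.9 in M2 and 0.246 in CD4. Its ratios were 509 over M1 and 300.5 over CD4. With the incomplete rows, which added to its level in M2 alone, they were 1021 and 602. By level in M2 over complete rows the genes ranked Lck, Cd3g, Lat, Cd3e, Cd247, Prkcq, Cd3d, Lcp2 and Zap70, and the spread between neighbours in this order is not known from 1 library. With all rows summed the order changed, with Lat at 218 FPKM above Lck, Prkcq at 148 above Cd3e at 146, and Zap70 at 73.2 above Cd3d and Lcp2.

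All 9 genes were highest in the library labelled M2, where 46.4% of the genes above 0 in any library had their highest value. Past a 2-fold difference on the log2(FPKM + 1) scale, which understates the change of genes that are low in both libraries, 8 of 9 were higher in M2 than in M1, against 5.73% of all genes. The same 8 were higher in M2 than in CD4, against 5.85% of all genes, and Lcp2 was the exception in both comparisons, with log2 ratios of 0.25 and 0.33. Among protein-coding genes with at least 1 FPKM in a library, 15.6% and 15.7% were that much higher in M2. The median log2 ratio of the 9 genes was 6.69 in either comparison and that of all genes was 0. The 2 comparisons share the M2 library and are therefore not independent of each other.

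Between the libraries labelled M1 and CD4, the ratio of FPKM of CD4 to M1 ran from 0.525 for Lck to 1.91 for Cd3g over the 7 low genes above 0 in both, and was 0.943 for Lcp2. None of the 9 passed a 2-fold difference on the log2(FPKM + 1) scale, where 2.2% of all genes were higher in CD4 and 2.28% lower, but only Lcp2 was high enough for such a call to be possible. For the 7 low genes, the level in M1 was 0.0683% to 0.196% of that in M2 and the level in CD4 0.103% to 0.333%. These low values rested on an estimated 2 to 53 fragments in M1 and 8 to 48 in CD4, against 5761 to 26286 in M2. Exact Poisson intervals at 95% cover counting error only, and not the error of the estimated depth. With them, the estimated fragments per unit of depth overlapped between M1 and CD4 for 5 of the 7. The share over all genes was not computed, so this count has no background. The intervals did not overlap for Cd3g, with 2 estimated fragments in M1 and 19 in CD4, nor for Lck, with 53 and 33. Both differences depended on which rows of the table were used: with all rows summed, Lck was at 0.762 FPKM in M1 and 0.771 in CD4, and Cd3g at 0.416 in M1 and 0.264 in CD4.

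The transcripts behind these levels were then examined, since Cufflinks divides the fragments of a gene among its annotated transcripts by a model. Of 32 annotated transcripts of the 9 genes, 30 had a value in all 3 columns. Cd3d, Cd3e and Lat have 1 transcript each in the annotation. Cd3g in M2 and CD4 was carried by Cd3g-001, while the 0.138 FPKM listed in M1 stood on Cd3g-003, a retained-intron transcript of 294 bases, with Cd3g-001 at 0. The ratio of Cd3g between M2 and M1 thus sets different transcripts against each other.

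Cd247 was the clearest case of a single transcript. Cd247-004 (ENSMUST00000005907, 1678 bases, 8 exons) carried all of the 102 FPKM in M2, and the other 6 transcripts were at 0. Cd247-004 is the one whose reading frame holds 3 ITAMs, while Cd247-001, Cd247-002 and Cd247-003 hold 2. The coding sequences are shared up to the exon junction inside the third motif, for 429 bases with Cd247-001 and 430 with the other 2. The sequences below are the 72 coding bases from coding base 424 (NCBIM37, chromosome 1, plus strand), shown because they are where the third ITAM is kept or lost, with in-frame tyrosine codons in capitals.
Cd247-004: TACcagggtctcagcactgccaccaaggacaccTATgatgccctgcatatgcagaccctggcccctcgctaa
Cd247-001: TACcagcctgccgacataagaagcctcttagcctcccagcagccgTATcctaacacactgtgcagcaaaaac
Cd247-002: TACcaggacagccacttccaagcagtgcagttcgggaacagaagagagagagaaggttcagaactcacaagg
In Cd247-004 the coding sequence ends there, at 495 bases, and both tyrosines of the motif are present. Cd247-001 runs on to 534 bases and has a second tyrosine outside the ITAM spacing, and Cd247-002, which has the same 72 bases as Cd247-003, has the first tyrosine alone. Cd247-004 has 639 bases that are in no other annotated Cd247 transcript, so its level could be set from fragments of its own.

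**Figure D2:**
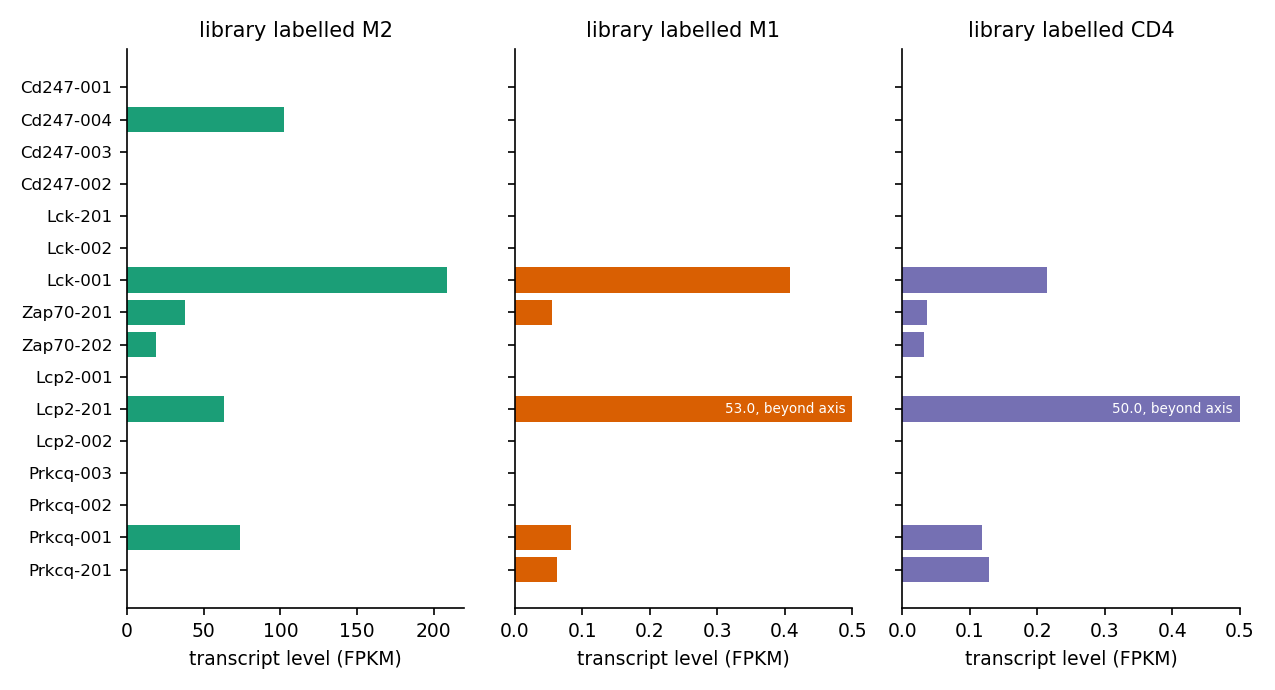
Level in FPKM of the transcripts of Cd247, Lck, Zap70, Lcp2 and Prkcq with protein-coding annotation, in the libraries labelled M2, M1 and CD4, with an axis that ends at 0.5 FPKM for M1 and CD4. Cd247, Lck, Lcp2 and Prkcq each have 1 bar in M2, Zap70 has bars at 37.8 and 18.9 FPKM, and the Lcp2-201 bars of M1 and CD4, at 53.0 and 50.0 FPKM, run beyond the axis.

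Lck was carried by Lck-001 in all 3 libraries, and Lck-002, whose coding sequence of 1530 bases is the same, was at 0 in all 3. The transcripts differ outside the coding sequence, where 127 bases were found in Lck-001 alone and 116 in Lck-002 alone. Zap70 was the one gene divided between transcripts in M2. Zap70-201, with the full coding sequence of 1857 bases, was at 37.8 FPKM, or 66.7% of the gene, and Zap70-202, of 921 coding bases, at 18.9 FPKM, or 33.3%. The last 778 coding bases are common to both, and Zap70-202 has 137 bases that occur in no other transcript, so that much of its level rests on the division by the model. The shares leave out incomplete rows, which in M2 held a further 16.5 FPKM, all of it on Zap70-201. In CD4 the shares were 53.4% and 46.6%, on 8 estimated fragments for the gene, and in M1 all of the level was on Zap70-201, on 7.

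Prkcq in M2 was carried by Prkcq-001, with a coding sequence of 2124 bases. In M1 and CD4 the low level was divided between Prkcq-001, at 0.0829 and 0.118 FPKM, and the shorter Prkcq-201, at 0.0622 and 0.128 FPKM, which was at 0 in M2. Prkcq-201 has 1395 coding bases, of which the last 1335 are shared with Prkcq-001. At 25 and 48 estimated fragments per gene these shares are imprecise.

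Lcp2 was listed on Lcp2-201 alone, at 100% in all 3 libraries, and the longer Lcp2-001 was at 0. Lcp2-201 lacks 3 coding bases of Lcp2-001, codon 384, at the junction of exons 17 and 18 (chr11:33983457-33987218, NCBIM37, plus strand), which the capitals mark below, since this codon is the one coding difference between them.
Lcp2-001: tacttctctcaaGAAggtccaggcaac
Lcp2-201: tacttctctcaaggtccaggcaac
No base of Lcp2-201 is absent from all other Lcp2 transcripts, and Lcp2-001 has 238 bases of its own. The choice between them was the same in the library with high T-cell markers and in those with high macrophage markers.

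Some rows of the table held a value in 1 column and a dash in the others, and the levels above leave these rows out. Wherever they were included, a dash was counted as 0, although it may stand for a missing value. The 9 genes had 57 rows, 30 of them complete, and 25 had a value in 1 column only, 9 in M1, 8 in M2 and 8 in CD4. Cd247 gained 3.14 FPKM in M1 and 2.74 in CD4, from 6 rows each, where its complete rows were at 0, and with them its ratio of M2 was 32.5 over M1 and 37.2 over CD4. These rows stood on Cd247-001 and Cd247-002, so that the ratio sets them against Cd247-004 in M2. Prkcq gained 74.2 FPKM in M2 from 4 rows of 15.6 to 21.9 FPKM, which brought it to 148 FPKM. Of the other genes, Cd3e, Zap70 and Lat gained 20.2, 16.5 and 18.0 FPKM in M2. Lcp2 had no such value in any library. With all rows summed, some genes outside the 9 reached extreme levels in M2. Cd5 was at 11066.5 FPKM against 81.3 over complete rows, and Btk at 104937 against 5.35. Levels and ratios that include such rows are therefore less certain. With all rows summed the 8 genes other than Lcp2 were still past the 2-fold difference in both comparisons.

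**Figure D3:**
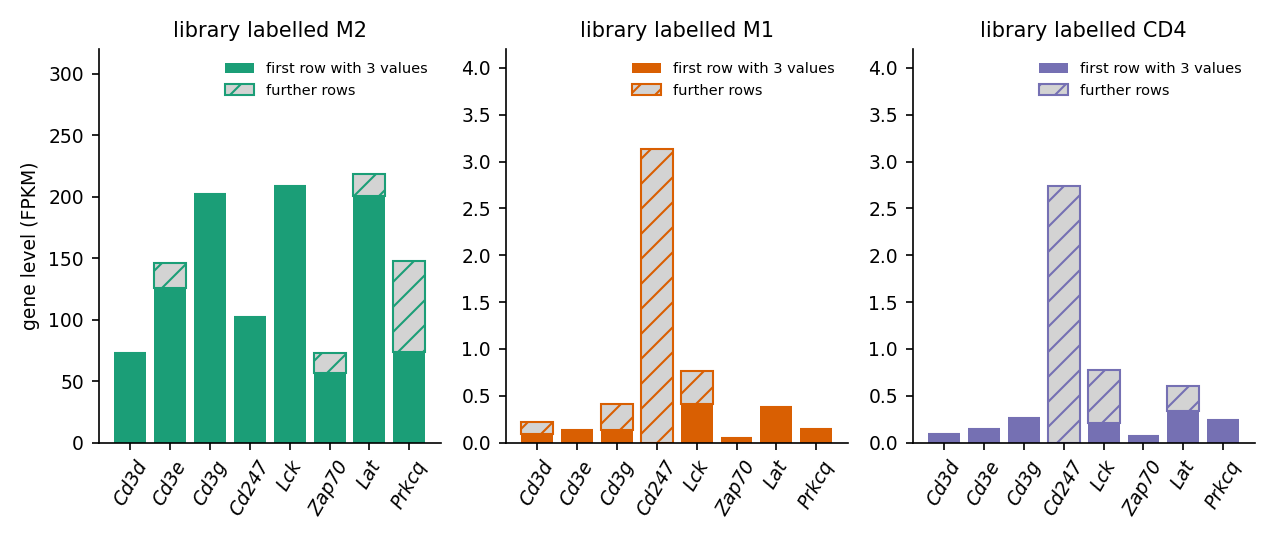
Level in FPKM of the 8 genes other than Lcp2 in each library, as the first row with 3 values (solid bar) and the rows that lack a value in some column (hatched, stacked on it), with a separate linear FPKM axis for M2. The tallest hatched bars are Prkcq in M2, at 74.2 FPKM, and Cd247 in M1 and CD4, at 3.14 and 2.74 FPKM.

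The 3 CD3 genes of chromosome 9 lie in a stretch of 40019 bases, and all 3 were high in the same library. Cd3g and Cd3d start head to head, with 1361 bases between their starts, and 11690 bases separate Cd3d from Cd3e. The 250 bases before the RefSeq starts of this pair (GRCm38.p6, chr9:44980432-44980681 on the minus strand for Cd3g and chr9:44981536-44981785 on the plus strand for Cd3d) are shown beside those of Lcp2 (chr11:34046678-34046927, plus strand), the gene that did not follow them.
Cd3g promoter: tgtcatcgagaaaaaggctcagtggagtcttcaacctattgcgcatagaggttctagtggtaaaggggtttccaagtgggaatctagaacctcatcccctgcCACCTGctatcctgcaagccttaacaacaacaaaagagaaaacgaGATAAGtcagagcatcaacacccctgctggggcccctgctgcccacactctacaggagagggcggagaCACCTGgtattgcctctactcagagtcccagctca
Cd3d promoter: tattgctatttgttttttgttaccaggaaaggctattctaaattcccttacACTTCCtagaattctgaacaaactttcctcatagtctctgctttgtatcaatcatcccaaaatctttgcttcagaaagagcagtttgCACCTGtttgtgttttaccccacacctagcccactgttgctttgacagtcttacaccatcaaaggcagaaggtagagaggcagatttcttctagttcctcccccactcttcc
Lcp2 promoter: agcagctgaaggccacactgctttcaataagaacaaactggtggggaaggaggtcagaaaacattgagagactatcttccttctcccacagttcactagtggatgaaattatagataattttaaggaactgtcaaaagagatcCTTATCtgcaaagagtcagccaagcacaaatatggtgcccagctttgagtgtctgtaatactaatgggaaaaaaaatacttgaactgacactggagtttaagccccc
The capitals mark 4 motifs that were searched on both strands, so that capitals may also show a reverse complement (ACTTCC for the first): GGAAGT, a core of Ets factors, TGTGGT, that of Runx factors, CAGGTG, an E-box, and GATAAG, that of GATA factors. In windows from 250 bases before to 50 after the start, the E-box was found in windows of 6 genes, Cd247, Cd3d, Cd3e, Cd3g, Lck and Zap70, and in 20.2% of 32851 windows of all genes. The Ets letters were found for 5 genes, Cd247, Cd3d, Cd3e, Lck and Zap70, against 23.8% of all windows. The Runx letters were found for Lat, Lck and Zap70, against 16.8%, and the GATA letters for Cd3g and Lcp2, against 7.44%. The 9 genes have 12 windows in all, since some genes have more than 1. Counted by window, as the shares of all genes are, the E-box was in 8 of the 12 and the Ets letters in 6. The Runx letters were in 3 of them and the GATA letters in 2. A match of letters is a description of the sequence and does not show a bound site.

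The rest of the TCR pathway was examined in a list of 60 genes, of which 57 had values in all 3 columns. In M2, 35 of them were past 2-fold above M1, where 5.73% of all genes were, 3 below and 19 neither, with a median log2 ratio of 1.72. The 35 include Cbl, which was listed at 0 in M1 over complete rows. With all rows Cbl was at 35.8 FPKM in M1 and 29.7 in M2. Against CD4 there were 37 above, where 5.85% of all genes were, 3 below and 17 neither, with a median of 2.02. The receptor chains were among the highest, with Trbc1, a constant part of the TCR beta chain, at 0.400 FPKM in M1, 434 in M2 and 0.329 in CD4. TCRbeta was one of the markers used in the sort, and this list shares genes with the T-cell markers, Trbc1 among them.

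Several genes next to the 9 in the cascade had their highest level in M2. Plcg1, the phospholipase C recruited to Lat, was at 1.93 FPKM in M1, 59.4 in M2 and 4.53 in CD4. Skap1 and Fyb, partners in the adhesion arm of the pathway, differed: Skap1 was at 0.0775, 99.9 and 0.113 FPKM and Fyb at 28.2, 93.5 and 33.8 FPKM. Grap2, the adaptor that links Lat to Lcp2, was at 6.76, 40.3 and 1.25 FPKM, and Dgka, which removes diacylglycerol and so limits the signal, at 3.33, 216 and 3.10 FPKM. Csk and Vav1, which many leukocytes use, were close in the 3 libraries. Csk, the kinase that restrains Src family kinases, was at 55.7 FPKM in M1, 83.0 in M2 and 65.5 in CD4. The exchange factor Vav1 was at 51.3, 46.6 and 63.1 FPKM. The genes past 2-fold lower in M2 were Tec, Ubash3b and Unc119 against M1, and Tec, Grb2 and Nfatc2 against CD4. Tec was at 29.1, 9.29 and 21.0 FPKM. Between CD4 and M1, 2 of the 57 were higher in CD4, Cd4 and Cbl, where 2.2% of all genes were. Another 6 were lower in CD4, where 2.28% of all genes were. Cbl was at 0 in M1 over complete rows, and with all rows its direction turned, with 35.8 FPKM in M1 and 29.9 in CD4. Trac, the constant part of the TCR alpha chain, had no complete row, and with all rows summed it was highest in M2, at 0.623 FPKM in M1, 386 in M2 and 0.334 in CD4.

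The myeloid counterparts were ordered the other way. Of 13 listed genes 12 had values, and 9 were past 2-fold lower in M2 than in M1, against 4.9% of all genes, with 1 higher and a median log2 ratio of -2.81. Against CD4, 9 were lower, where 5.17% of all genes were, and none higher, with a median of -2.60. Fcer1g, whose ITAM is printed above, was at 498 FPKM in M1, 32.3 in M2 and 530.1 in CD4, and Tyrobp at 688, 68.0 and 700.0 FPKM. These 2 ITAM chains were thus lowest where the CD3 chains were highest. Lat2, the counterpart of Lat, was at 56.7, 7.69 and 55.5 FPKM, and Blnk, that of Lcp2, at 21.9, 11.6 and 37.3 FPKM. Lyn, a Src family kinase, was at 118, 15.2 and 117 FPKM. Lat2 and Lyn thus had like levels in M1 and CD4. Fgr, of the same family, differed between M1 and CD4, at 80.1 FPKM in M1, 6.03 in M2 and 6.90 in CD4. Of the protein kinase C genes, Prkcd was at 127, 11.6 and 72.8 FPKM, and Prkcb, the one higher in M2 than in M1, at 3.13, 30.2 and 50.8 FPKM. Syk, the listed gene without values, was not found under its symbol in the annotation as searched, so its level is not known here.

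**Figure D4:**
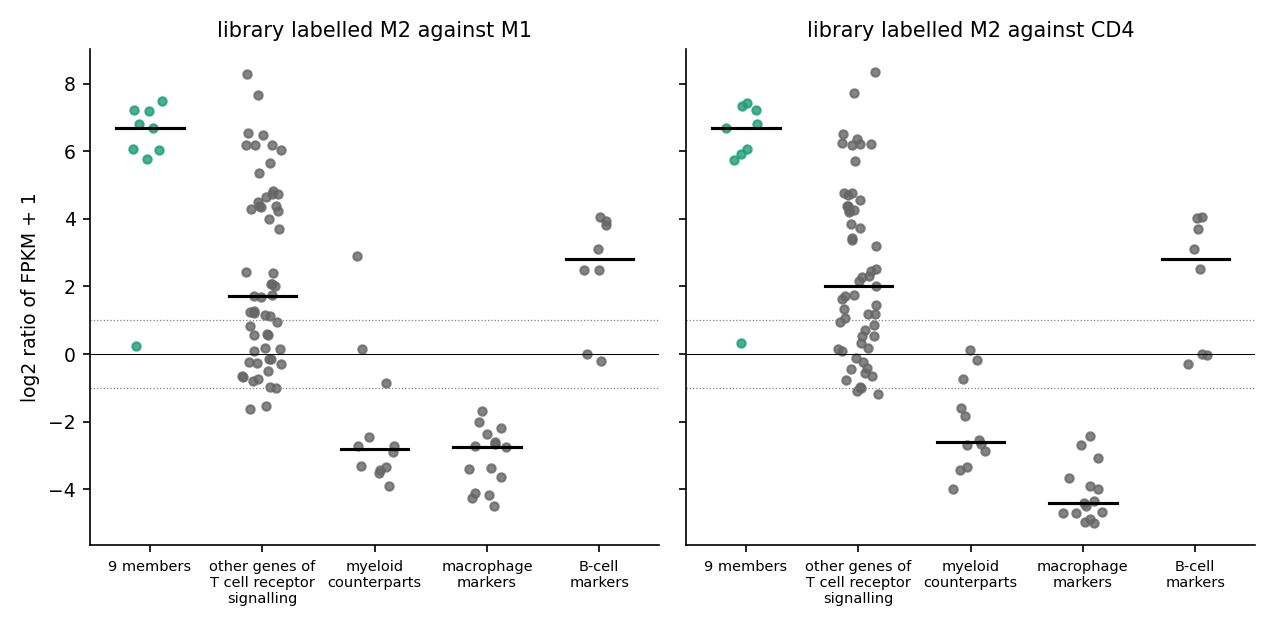
log2 ratio of FPKM + 1 of the library labelled M2 against M1 (left) and against CD4 (right) for each gene of 5 lists, 1 point per gene, with bars at the list medians and dotted lines at a 2-fold difference. The 9 genes have a median of 6.69, with Lcp2 alone near 0, while the myeloid counterparts have medians of -2.81 and -2.60.

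Other lymphocytes can also express some of the 9 genes, and their markers were measured beside them. The 8 NK-cell markers, cells that can use Cd247, Zap70, Lck and Lat, summed to 6.26 FPKM in M1, 26.3 in M2 and 1.27 in CD4, with Prf1 and Klra8 listed at 0 in M2 over complete rows and Prf1 at 7.04 FPKM there with all rows. The 2 CD8 markers summed to 0.218, 10.8 and 0.139 FPKM. Of 8 B-cell markers, 5 were highest in M2, where 46.4% of the genes above 0 in any library were. The 8 summed to 1.62, 70.8 and 11.8 FPKM, of which Cd22 alone held 1.15, 11.0 and 11.3. Cd79b and Pax5 were at 0 in M2 over complete rows. With all rows Pax5 was at 6.49 FPKM in M2, and Cd79b was still listed at 0. The 8 neutrophil markers summed to 69.4, 233 and 36.2 FPKM and the 8 kidney epithelium markers to 121, 199 and 96.3 FPKM. With all rows the neutrophil marker Elane alone was at 366 FPKM in M1, 723 in M2 and 336 in CD4. Over complete rows Elane was at 0.0152, 0.351 and 0.0143 FPKM, so its level with all rows is uncertain. The sums of these lists were higher in M2, as the 9 genes were, but single markers differed. Highest in M2 were 5 of the 8 NK-cell, 6 of the 8 neutrophil and 5 of the 8 kidney epithelium markers. Lower in M2 than in M1 were Klrb1c, at 0.735 against 3.18 FPKM, Csf3r, at 8.40 against 19.7, and Cdh1, at 6.69 against 48.2. The part of these cells in the levels was not tested.

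The genes whose levels were most like the mean profile of the 9 over the 3 libraries were Ablim1, Gimap9, Satb1, Sept1 and Cd27, at Euclidean distances of 0.34 to 0.87 on the log2(FPKM + 1) scale, among 713 protein-coding genes at least as high in M2 as Zap70. Ablim1, an actin-binding protein, was at 1.03 FPKM in M1, 103 in M2 and 1.14 in CD4. Satb1, a chromatin organizer of T cells, was at 0.547, 69.3 and 1.06 FPKM. Because Lcp2 raised the mean in M1 and CD4, the profile was also taken without it, a choice made after its values were seen. The nearest genes were then Skap1, Tbc1d10c, Lef1, Gimap8 and Sept1, at distances of 0.25 to 0.42. Skap1 is a gene of the TCR pathway list, and Gimap8, a GTPase of a family found in lymphocytes, was at 0.195 FPKM in M1, 87.8 in M2 and 0.0744 in CD4. With 3 libraries these distances describe the values and carry no test.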

How the data were processed

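RNA of 3 sorted mouse cell populations was sequenced, 1 library each. The authors trimmed the reads, aligned them to MM9 with Bowtie 0.12.8 and TopHat 1.4.1, estimated transcript levels with Cufflinks 2.1.0 and Ensembl release 67, and deposited them in FPKM in 1 table. For each identifier the first row with a value in all 3 columns was used, which holds for 68.3% of rows, and transcripts were summed per gene over the Ensembl release 65 annotation of NCBIM37. Ratios are of FPKM as deposited or, on the log2 scale, of FPKM + 1, with a difference of at least 1 called. The genes named are the 9 genes and their transcripts, the listed genes (some are not reported here by name), and the 5 protein-coding genes nearest the mean profile, those nearest without Lcp2 being added afterwards. The genes, lists and tests were chosen with earlier results of these data known.

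Fragments were estimated from FPKM, transcript length and a depth taken from the commonest low value over single-transcript genes of 2500 to 8000 bases. Other length ranges gave 61400000 to 61800000 for M1, 59700000 to 62700000 for M2 and 72000000 to 74000000 for CD4. Motifs and coding sequences were read from the reference genome and RefSeq promoter windows. Alternatives were all rows summed with a dash counted as 0, a pseudocount of 0.1, scaling by median ratio, a minimum of 1 FPKM and protein-coding transcripts only. Calculations were tested on simulated data and used Python 3.11.15 (scipy 1.17.1, pandas 2.3.3, numpy 2.4.6 and, for plots, matplotlib 3.10.9).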

Additional observations from a re-analysis of the deposited data

Results flagged for a closer look

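Values in rows that lack a level in another column were not part of the comparisons. There is no control group for these rows, and they were set beside the complete rows of the same gene. In the library labelled M2 they held 20.2 FPKM of Cd3e, 16.5 of Zap70, 18.0 of Lat and 74.2 of Prkcq. In M1 they held 0.127 FPKM of Cd3d, 0.278 of Cd3g, 3.14 of Cd247 and 0.354 of Lck. In CD4 they held 2.74 FPKM of Cd247, 0.557 of Lck and 0.262 of Lat. For Cd247 in M1 and CD4 the complete rows were at 0, so these rows were the whole listed level. For Prkcq in M2 these rows raised the level from 73.9 to 148 FPKM. The groups of 1 library allowed no search for outlying samples and no test of differences between groups.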

How the results depend on the processing

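No paired analysis was possible because there was a single library per population, and for the same reason no replicate could be left out. The counts of genes past 2-fold were 8 for M2 over M1, 8 for M2 over CD4 and 0 between CD4 and M1 under each of the 5 alternatives, and also without Lcp2, an alternative chosen after seeing the data that leaves 8 genes. With a minimum of 1 FPKM the count between CD4 and M1 rests on Lcp2 alone. The median log2 ratio of M2 to M1 ran from 6.64 with libraries scaled by the median ratio to 8.68 with a pseudocount of 0.1, that of M2 to CD4 from 6.64 to 8.83, and that of CD4 to M1 from -0.08, which is Lcp2 alone under the minimum of 1 FPKM, to 0.01. The log2 ratio of Lcp2 ran from 0.20 to 0.25 over M1 and from 0.27 to 0.34 over CD4. That of Cd247 fell to 4.64 over M1 and 4.78 over CD4 with all rows summed, and rose in both comparisons with a pseudocount of 0.1. The pathway list had 33 to 38 genes higher in M2 than in M1 and 36 to 39 higher than in CD4, and the myeloid counterparts 8 to 9 and 7 to 9 lower. Among these counterparts Btk was at 104937 FPKM in M2 with all rows summed, against 5.35 over complete rows. Scaling took away a median log2 ratio to M1 of 0.04 in M2 and -0.02 in CD4, so that levels fell slightly in M2 and rose slightly in CD4. Depth limits the values in M1 and CD4, where 7 of the 9 genes rested on at most 53 estimated fragments.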
